A study of Tachysurus ussuriensis with 12 samples.

Results

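The transcripts described here are those that were abundant in both gill and kidney of the Ussuri catfish, Tachysurus ussuriensis, a freshwater fish of the bagrid family. They are the rows of the deposited table with an FPKM of 100 or more in every one of the 12 libraries. FPKM divides the fragments of a transcript by its length and by the library's mapped fragments, so levels of different transcripts can be compared. The rule was met by 275 of 84875 assembled transcripts, or 0.324%. The levels themselves chose these transcripts, so that they are high in every library is not a finding. The rule also leaves out any transcript that dropped below 100 FPKM in a single library, and with it the largest differences between tissues or times.

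RNA was sequenced from gill and kidney sampled at 24 h and at 0 h of acute salinity stress, in 4 groups of 3 libraries: gill 24 h, gill 0 h, kidney 24 h and kidney 0 h. The labels give no salinity, age, sex or number of fish, and name no group kept 24 h without salinity stress, so a change over 24 h and a response to salinity cannot be told apart. Nothing states that the 3 libraries of a group came from separate fish, and p-values therefore measure the spread between these libraries, which may be technical. In whole tissue, a lower level can mean fewer cells of a type or less RNA per cell, and these cannot be told apart.

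In animal tissues the most abundant messenger RNAs found in every organ usually encode parts of the ribosome, translation elongation factors, subunits of the mitochondrial respiratory chain, actins and iron-storage ferritin. Gill and kidney of freshwater fish both carry out ion transport, and both tissues hold blood. The gill takes up salts from the water, and the kidney reabsorbs salts and excretes dilute urine. The files do not pair the transcript IDs with gene names, so which of these genes the 275 transcripts come from was not analysed here, and neither tissue label could be set against marker genes. The transcripts are therefore called by their rank in mean FPKM over the 12 libraries, from rank 1, the highest, to rank 275. Tissue differences are gill minus kidney, changes over time are 24 h minus 0 h, and both are on the log2(FPKM + 1) scale, on which the added 1 has little weight at these levels.

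Library totals and quality bear on all values that follow. FPKM summed to 672918 to 714003 in gill libraries and 631998 to 648564 in kidney libraries, and the number of reads behind these values is unknown. The library kidney 0 h replicate 2 stood apart: of the 275 transcripts, 181 were lower in it than in each of the other 5 kidney libraries and 36 were higher, and it held the lowest value of all 12 libraries for 118. Its median FPKM over all rows was 1.26, against 1.85 to 2.22 in the other 11 libraries. The main counts, and some of the single values, are also given without it.

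The 275 transcripts held 18.8% to 22.9% of the FPKM total of a library, with little difference between 24 h and 0 h. Their share of the total was 20.3%, 19.3% and 19.7% in the gill libraries of 24 h (replicates 1, 2 and 3) and 19.1%, 19.9% and 20.2% in those of 0 h. In kidney it was 22.2%, 22.0% and 21.1% at 24 h, and 22.1%, 18.8% and 22.9% at 0 h. The 24 h and 0 h libraries overlapped in each tissue, and all kidney libraries but replicate 2 of 0 h were above all 6 gill libraries. The mean share was 19.8% ± 0.51 in gill 24 h libraries and 19.7% ± 0.581 in gill 0 h libraries. In kidney it averaged 21.8% ± 0.628 for 24 h and 21.3% ± 2.19 for 0 h (SD, n = 3 per group). Without kidney 0 h replicate 2, the 5 other kidney libraries averaged 22.1% ± 0.666 (SD, n = 5). These shares are a description with no test, because the transcripts were chosen on the same values.

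Library totals were higher in gill, while the summed level of the 275 transcripts overlapped between the tissues. This sum ran from 130029 to 141505 in the 6 gill libraries and from 136563 to 144855 in the kidney libraries other than replicate 2 of 0 h, which had 119750. Gill also had more transcripts that were abundant in that tissue alone. At 100 FPKM or more in all 6 gill libraries were 483 transcripts, and in all 6 kidney libraries 366, so that the 275 made up 56.9% of the gill list and 75.1% of the kidney list. The 208 on the gill list alone held on average 13.4% of the FPKM total in gill and 1.84% in kidney, and 57 of them were below 10 FPKM in every kidney library. The 91 on the kidney list alone held 0.896% of the total in gill and 4.57% in kidney, and 4 were below 10 FPKM in every gill library. Of the 208, 18 missed the kidney list by their value in kidney 0 h replicate 2 alone. With that library left out of the rule, 293 transcripts met it.

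**Figure D1:**
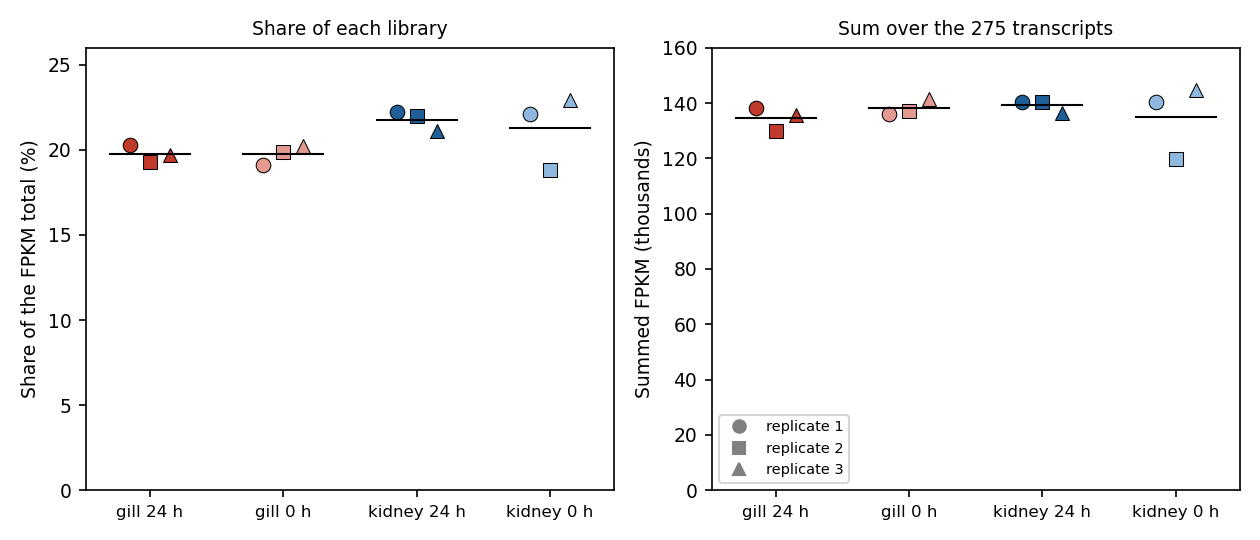
Share of each library's FPKM total (left, percent) and summed FPKM (right, axis in units of 1000 FPKM) of the 275 transcripts, with 1 point per library, its shape giving the replicate, and a line at the mean of each group of 3. Shares in kidney lie between 21.1% and 22.9% except for replicate 2 of 0 h at 18.8%, and those in gill between 19.1% and 20.3%; the sums overlap between the tissues.

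Within the 275, a few transcripts carried much of the signal. Mean FPKM ran from 111.5 at rank 275 to 8275 at rank 1, with a median of 264.4. It was 1000 or more in 26 transcripts, 500 to 1000 in 40, 200 to 500 in 125 and 100 to 200 in 84. The 10 highest in a library held 28.0% to 31.4% of the summed FPKM of the 275, and between 30 and 37 transcripts were enough to reach 50% of it. Ranks 1 and 2 together held 2.44% ± 0.137 of the FPKM total in gill at 24 h and 2.09% ± 0.173 at 0 h, and 2.34% ± 0.0407 in kidney 24 h libraries and 2.27% ± 0.621 in kidney 0 h libraries (SD, n = 3 per group). In the kidney 0 h libraries other than replicate 2, at 1.56%, they held 2.49% and 2.74%.

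Ranks 1 to 4 had similar levels in both tissues. Rank 1 had 9393, 8397 and 9208 FPKM in gill at 24 h and 7540, 8648 and 8115 at 0 h, and in kidney 7929, 8229 and 8091 at 24 h and 8723, 5366 and 9662 at 0 h. Its lowest value was in kidney 0 h replicate 2, and the other 11 libraries lay between 7540 and 9662. Rank 2, which the assembler placed in the same component as rank 1 but in another gene, moved with it: the ratio of rank 1 to rank 2 stayed between 1.15 and 1.26 in all 12 libraries. Rank 3 had 4208 to 4579 FPKM in gill at 24 h and 4650 to 4809 at 0 h, and 4518 to 5022 in kidney at 24 h and 3424 to 4707 at 0 h. Rank 4 was the most even of these, at 3672 to 3757 FPKM in gill at 24 h, 3711 to 3859 at 0 h, 3508 to 3732 in kidney at 24 h and 2896 to 3677 at 0 h. None of these 4 passed the test between tissues or times, the lowest limma adjusted p being 0.191, for the difference of 0.20 (SE 0.10) between gill and kidney in rank 4 at 0 h. The difference at 0 h was 0.08 for rank 1 and 0.05 for rank 2, and -0.18 and -0.17 once kidney 0 h replicate 2 was left out, and none of the 4 was called.

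Ranks 5 and 6 were on opposite sides. Rank 5 had 4302, 3685 and 4158 FPKM in gill at 24 h, against 1545, 1302 and 1168 in kidney at 24 h. At 0 h it had 4999, 4501 and 4773 in gill, against 2037, 1102 and 1681 in kidney. Every gill library was above every kidney library, with differences of 1.60 (SE 0.19; limma adjusted p = 6.13e-05) at 24 h and 1.61 (SE 0.19; limma adjusted p = 6.21e-05) at 0 h. Rank 6 was the reverse and is described with the tissue differences.

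Many of the transcripts were even across the whole series. The highest of the 12 libraries was less than 1.5 times the lowest in 99 transcripts and less than 2 times in 173, with a median of 1.67 times. Leaving out kidney 0 h replicate 2 put 126 under 1.5 times, with a median of 1.57. The most even was rank 94, at 329.0 to 393.0 FPKM in all 12 libraries, a ratio of 1.19, followed by rank 87 (380.6 to 456.7 FPKM) and rank 107 (297.3 to 356.6 FPKM). These 3 were picked after their values were seen. The spread between libraries of a group was a median of 0.155 on the log2 scale among the 275, beside 0.392 over all 75716 tested transcripts. These spreads belong to unlike levels. The rule required 100 FPKM or more in every library, while the median FPKM over all rows of a library was 1.26 to 2.22. At the other end, 24 transcripts spanned 5 times or more and 5 spanned 10 times or more.

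**Figure D2:**
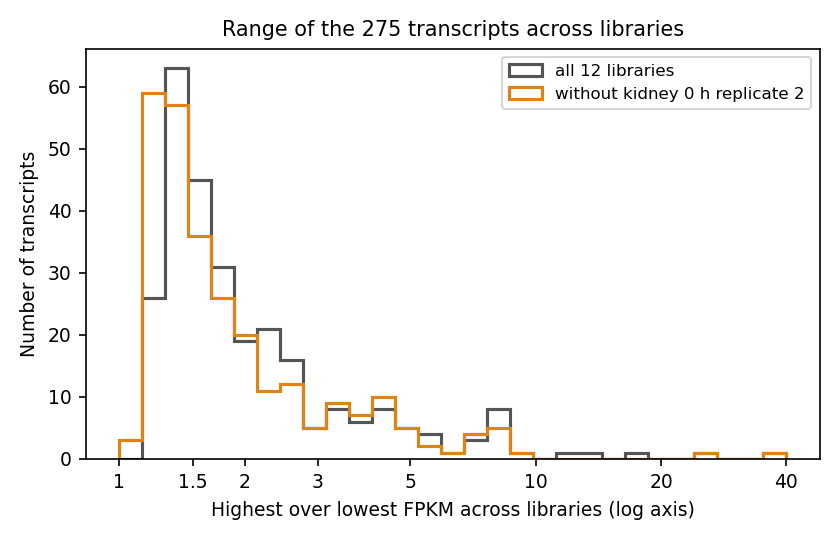
Number of transcripts (vertical axis) by the ratio of the highest to the lowest FPKM across libraries (horizontal, log axis), for all 12 libraries and without kidney 0 h replicate 2. The median ratio is 1.67 with all libraries and 1.57 without that one, and the tail reaches 38.6 in both.

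Of the 5 widest, ranks 19, 21 and 104 had their highest value in kidney 0 h replicate 2. Rank 19 had 5795 FPKM there, against 746.4 and 971.7 in the other kidney libraries of 0 h, 432.7 to 1744 in kidney at 24 h and 614.7 to 1461 in gill. Rank 21 had 5142 FPKM in that library and 456.6 to 1585 in the other 5 kidney libraries. Rank 104 had 1738 FPKM there, against 103.9 to 471.8 in the other 5 kidney libraries and 148.3 to 185.8 in gill. Without the library, their highest values were 4.03, 3.47 and 4.54 times their lowest. Ranks 6 and 8, the other two, differed between tissues. The threshold itself fell within a dense run of values: the lowest FPKM of the 3 transcripts just inside it was 100.3, 100.7 and 100.8, and that of the 3 just outside was 99.5, 99.4 and 99.2.

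With all 12 libraries and FPKM as deposited, gill and kidney differed in about as large a share of the 275 transcripts as of all transcripts. At 24 h, 88 of the 275 (32.0%) were called at a limma adjusted p under 0.05, where 30.7% of all 75716 tested transcripts were. Of these, 40 were higher in gill (14.5%, beside 15.6% of all) and 48 lower in gill (17.5%, beside 15.1%). At 0 h, 72 were called (26.2%, beside 29.3%), 44 of them higher in gill (16.0%, beside 17.3%) and 28 lower (10.2%, beside 12% of all). Of the 628 tested transcripts with a mean of 100 FPKM or more, whatever their lowest value, 337 were called at 24 h and 312 at 0 h. That set can take in transcripts that reach the mean through a single tissue. It therefore does not show how far the rule moved these shares. The median size of the difference was 0.25 at 24 h and 0.17 at 0 h, beside 0.55 and 0.53 over all tested transcripts. These sizes are not a like comparison. The rule leaves out the largest differences, and the median SE was 0.14 among the 275, beside 0.31 over all. The FPKM ranges of the tissues were apart for 176 of the 275 at 24 h (64.0%, beside 48.4% of all), 72 higher in gill and 104 lower. At 0 h this held for 86 (31.3%, beside 39.1%), 52 higher in gill and 34 lower. With the 2 other kidney libraries of 0 h alone, which leaves fewer values to overlap, it held for 161 (58.5%, beside 55.0% of all), 76 higher in gill and 85 lower.

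Which side held more calls depended on the scaling between libraries. At 24 h, 33 of the 275 were higher in gill and 67 in kidney with equal library totals, 49 and 39 with median-ratio scaling, and 28 and 106 with quantile normalization. Over all tested transcripts the same fits called 14.6% higher in gill and 16.6% in kidney, 17.1% and 13.7%, and 16.1% and 15.6%. At 0 h the numbers of the 275 were 36 and 43, 41 and 34, and 30 and 66, beside 15.7% and 13.9%, 17.6% and 13.3%, and 15.9% and 15.5% of all. The median difference of the 275 moved in the same way: at 24 h it was -0.11 as deposited, -0.21 with equal totals, 0.02 with median-ratio scaling and -0.34 with quantile normalization. Over all tested transcripts it was -0.09, -0.15, 0.00 and -0.07. At 0 h the median difference of the 275 was 0.04 as deposited, -0.11, 0.00 and -0.23 in the same order, and that of all tested transcripts 0.01, -0.09, -0.01 and -0.10. In either direction, equal totals called 36.4% of the 275 at 24 h (beside 31.3% of all) and 28.7% at 0 h (beside 29.7%). Median-ratio scaling called 32.0% (beside 30.8%) and 27.3% (beside 30.9%), and quantile normalization 48.7% (beside 31.7%) and 34.9% (beside 31.5%). Without kidney 0 h replicate 2, 129 of the 275 were called at 24 h (46.9%, beside 37.1% of all), 54 higher in gill and 75 lower. At 0 h, 104 were called in that fit (37.8%, beside 33.1%), 55 higher and 49 lower. Without that library, the share called was thus larger among the 275 than over all.

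Called in the same direction at 24 h and 0 h were 60 of the 275, of which 35 were higher in gill and 25 in kidney, and none was called in opposite directions. These are 12.7% and 9.09% of the 275, beside 12.6% and 9.19% of all tested transcripts. Another 40 were called at 1 time (14.5%, beside 16.4%), and 175 at neither (63.6%, beside 61.8%). Once kidney 0 h replicate 2 was left out, 44 were higher in gill at both times and 39 in kidney (16.0% and 14.2%, beside 13.3% and 11.9% of all). Averaged over the times, the 35 were higher in gill by 0.31 to 2.24, with a median of 1.36 and 22 of them above 1. The 25 had differences of -0.42 to -4.10, with a median of -0.91 and 9 of them below -1. The 35 together held 4.28% ± 0.193 of the FPKM total in gill at 24 h, against 1.85% ± 0.137 in kidney. At 0 h they held 4.43% ± 0.129 in gill, against 1.87% ± 0.339 in kidney (SD, n = 3 per group). For the 25 the shares were 1.17% ± 0.0499 in gill against 4.00% ± 0.119 in kidney at 24 h, and 1.24% ± 0.0887 in gill against 3.84% ± 0.798 in kidney at 0 h (SD, n = 3 per group). In kidney 0 h replicate 2 the 35 held 1.5% and the 25 held 2.95%, against 1.95% to 2.16% and 4.06% to 4.5% in the other two libraries of that group. The sets were defined from these libraries' values, so their shares show only how much of each library they held. Across the 275, mean levels in gill and kidney correlated at r = 0.793 (Spearman rho = 0.764; n = 275 transcripts, which are not independent and were all chosen to be high in both). It was 0.791 without kidney 0 h replicate 2.

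**Figure D3:**
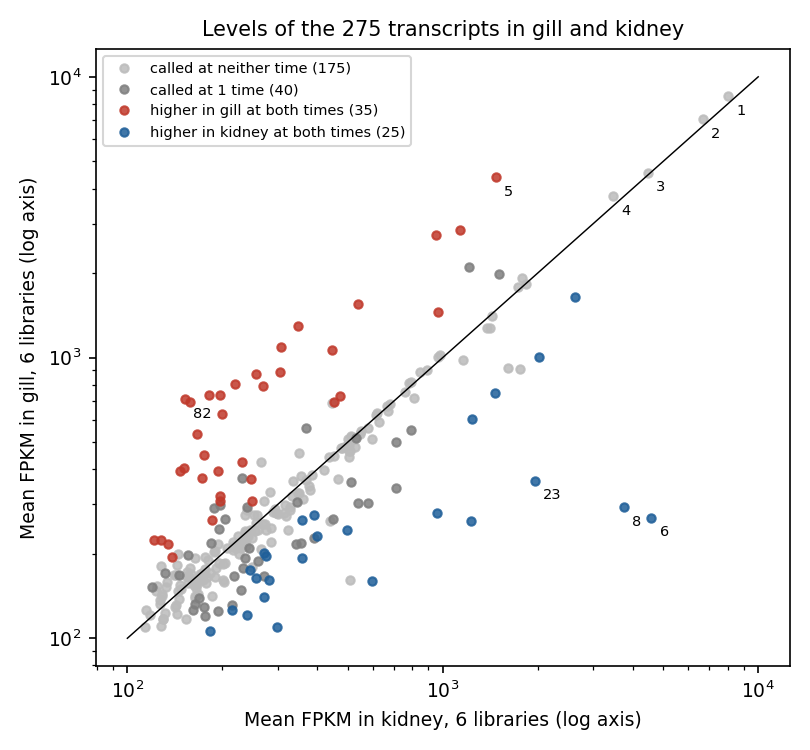
Mean FPKM over 6 libraries in gill (vertical, log axis) and kidney (horizontal, log axis) of the 275 transcripts, coloured by the limma call at 24 h and 0 h, with the line of equal levels and some ranks written beside their points. The 35 red points lie above the line and the 25 blue points below it, while ranks 1 to 4 sit close to it.

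The transcripts that leaned most to gill were ranks 82, 83 and 77. Rank 82 had 722.9, 661.1 and 687.8 FPKM in gill at 24 h, against 150.7, 143.5 and 124.1 in kidney at 24 h. At 0 h it had 877.4, 557.7 and 757.1 in gill, against 228.0, 112.6 and 154.9 in kidney. All 6 gill libraries were above all 6 kidney libraries, by 2.30 (SE 0.23; limma adjusted p = 1.31e-05) at 24 h and 2.17 (SE 0.23; limma adjusted p = 2.15e-05) at 0 h. Rank 83 had 689.9 to 866.6 FPKM in gill against 133.5 to 206.5 in kidney at 24 h, and 476.8 to 788.1 against 100.9 to 173.3 at 0 h, with differences of 2.20 and 2.06. Rank 77 had 495.1 to 598.0 against 130.1 to 164.9 FPKM at 24 h, and 764.3 to 1112 against 162.9 to 244.5 at 0 h, with differences of 1.82 and 2.15.

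Toward kidney the largest differences were those of ranks 6, 8 and 23. Rank 6 had 243.9, 316.8 and 216.6 FPKM in gill at 24 h, against 4833, 4353 and 4956 in kidney at 24 h. At 0 h it had 209.7, 252.1 and 373.4 in gill, against 4823, 3199 and 5322 in kidney. The groups were far apart at both times, with differences of -4.20 (SE 0.23; limma adjusted p = 1.1e-07) at 24 h and -4.00 (SE 0.23; limma adjusted p = 1.68e-07) at 0 h. Rank 8 had 352.3 to 552.0 FPKM in gill against 3510 to 3723 in kidney at 24 h, and 136.1 to 185.7 against 2406 to 5248 at 0 h, with differences of -3.10 and -4.56. Rank 23 had 358.0 to 413.3 against 2173 to 2339 FPKM at 24 h, and 298.1 to 397.9 against 1545 to 1763 at 0 h, with differences of -2.54 and -2.28. Ranks 82, 83, 77, 6, 8 and 23 kept their direction and their call under every alternative setting and with any 1 library left out. They were picked for the largest differences in these same libraries, so this is not a separate check.

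A few of the 275 shared the name of an assembler gene or component, and these pairs did not always behave alike. Each ID ends in a number from 1 to 4 that the labels do not explain. With this ending set aside, the 275 carried the names of 273 assembler genes and 270 components. Ranks 23 and 199 carried 1 assembler gene name with different isoform numbers. Their IDs end in 1 and 3, so whether they are isoforms of 1 gene is unknown. Rank 199 had 204.6 to 216.9 FPKM in gill and 176.7 to 184.6 in kidney at 24 h, and 167.4 to 184.7 and 169.6 to 174.0 at 0 h. Its tissue difference was not called (0.21, limma adjusted p = 0.11 at 24 h; 0.06, limma adjusted p = 0.713 at 0 h), while rank 23 was several-fold higher in kidney. The 24 h difference of rank 199, still 0.21, was called without kidney 0 h replicate 2 (limma adjusted p = 0.0267). The ratio of rank 23 to rank 199 ran from 1.65 to 13.2 across the libraries. Ranks 39 and 75, from 1 component, both leaned to gill, by 1.71 and 1.81 at 24 h and by 1.98 each at 0 h, which was 1.68 and 1.82 without kidney 0 h replicate 2. The sources used here do not say how reads were divided between such transcripts.

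Over 24 h few of the 275 passed the test, though in gill a larger share of them did than of all tested transcripts. In gill, 6 were called (2.18%), 2 rising and 4 falling, where 0.848% of all tested transcripts were called, 0.415% rising and 0.433% falling. In kidney, 2 were called (0.727%), 1 rising and 1 falling, where 0.824% of all were called, 0.623% rising and 0.201% falling. Changes of more than 1 on the log2 scale in either direction were seen in 2.91% of the 275 in gill and 0.727% in kidney, beside 4.99% and 5.83% of all transcripts, with the rule itself limiting how far a level could fall.

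These counts moved with single libraries. In gill the count was 17 (3 rising, 14 falling) without kidney 0 h replicate 2, through the spread shared by all 4 groups, or 6.18% of the 275 beside 2.19% of all tested transcripts in that fit. It was 2 when gill 0 h replicate 1, gill 24 h replicate 1 or gill 24 h replicate 3 was left out, 1 when gill 0 h replicate 3 or gill 24 h replicate 2 was, and 3 when kidney 24 h replicate 2 was. In kidney it was 20 (13 rising, 7 falling) without kidney 0 h replicate 2, or 7.27% beside 2.72% of all. It was 1 without each of the 3 gill 0 h libraries, each of the 3 gill 24 h libraries, and kidney 24 h replicates 1 and 2, and 3 without kidney 0 h replicate 1. Fits to the groups of 1 tissue alone called 3 in gill and 0 in kidney, where limma gave 11 unadjusted p-values under 0.05. For these fits, and with any other library left out, the share of all tested transcripts called is not given here. From these counts alone, fewer calls among the 275 can therefore not be told apart from fewer calls over all transcripts. Scaling moved the split too: with median-ratio scaling 9 were called in gill (2 rising, 7 falling) and 3 in kidney, all falling, while quantile normalization gave 4 (1 rising, 3 falling) and 3 (2 rising, 1 falling). All tested transcripts were called at 1.06% in gill and 0.988% in kidney with median-ratio scaling, and at 1.02% and 0.909% with quantile normalization.

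Small shifts were common. The median size of the change was 0.14 in gill and 0.16 in kidney, beside 0.25 and 0.28 over all tested transcripts. The median SE was 0.14 among the 275, beside 0.31 over all, so the shares that follow are not a like comparison. At an unadjusted limma p under 0.05 were 46 of the 275 in gill (16.7%, beside 11.4% of all tested transcripts) and 51 in kidney (18.5%, beside 13.5%). The FPKM ranges of gill 24 h and gill 0 h were apart for 132 of the 275 (48.0%, beside 21.2% of all), 47 of them higher at 24 h and 85 lower, with a median size of 0.25. In kidney the ranges were apart for 52 (18.9%, beside 15.7% of all), 42 higher and 10 lower. With fewer values to overlap, this became 132 without kidney 0 h replicate 2 (48.0%, beside 31.8% of all), 70 higher and 62 lower. The median change of the 275 was -0.07 in gill and 0.09 in kidney, beside 0.02 and 0.10 over all tested transcripts. Its sign turned with the scaling: in gill it was 0.04 with quantile normalization, and in kidney -0.12 with median-ratio scaling, which moved the median of all tested transcripts to -0.01. Without kidney 0 h replicate 2 the kidney median was 0.02. Changes in gill and kidney correlated at r = 0.375 over the 275 (Spearman rho = 0.385, n = 275 transcripts), and at r = 0.398 without kidney 0 h replicate 2. The 2 changes have no library in common, but whether gill and kidney came from the same fish is unknown. At 24 h, deviations from the group means correlated between gill and kidney libraries of the same number (r = 0.137, 0.111 and 0.109). Whether this adds to the correlation of the changes was not tested. The rank order of levels was nearly kept, with Spearman rho between 24 h and 0 h of 0.932 in gill and 0.943 in kidney, or 0.925 in kidney without that library.

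**Figure D4:**
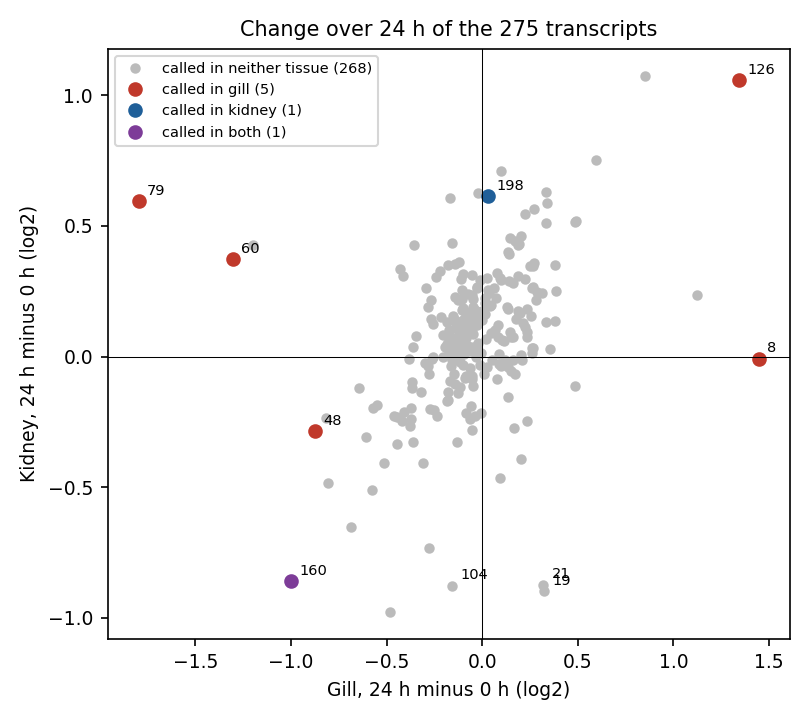
Change over 24 h in gill (horizontal) and kidney (vertical) of the 275 transcripts, 24 h minus 0 h on the log2(FPKM + 1) scale, coloured by the limma call, with ranks beside called transcripts and beside ranks 19, 21 and 104. Most points lie within 0.5 of 0 in each tissue (92.7% in gill, 91.3% in kidney, beside 77.1% and 73.2% of all tested transcripts). Rank 160 is called in both tissues.

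Rank 160 (TRINITY_DN19427_c0_g1_i1_2) fell in both tissues. In gill it had 181.3, 179.8 and 171.5 FPKM at 24 h, against 359.2, 357.2 and 352.0 at 0 h. In kidney it had 150.2, 146.5 and 136.7 FPKM at 24 h, against 277.1, 230.8 and 283.5 at 0 h. The groups were well apart in each tissue, and the libraries of a group lay close together. In gill it changed by -1.001 (SE 0.11; limma adjusted p = 0.00253), and in kidney by -0.86 (SE 0.11; limma adjusted p = 0.00556), the only fall called in kidney. The difference between the changes, kidney minus gill, was 0.14 (SE 0.15; limma adjusted p = 0.871). Over the alternatives its adjusted p lay between 0.000174 and 0.0633 in gill and between 0.000868 and 0.244 in kidney, where the fit to the kidney groups alone gave the highest, and both calls held with any 1 library left out. The replicate block, whose numbers were not found to pair libraries across times, ended both (limma adjusted p = 0.0633 in gill and 0.0776 in kidney).

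The largest rise in gill was that of rank 8 (TRINITY_DN30167_c0_g1_i7_1), the transcript that stood second toward kidney. It had 389.4, 552.0 and 352.3 FPKM in gill at 24 h, against 136.1, 185.7 and 146.2 at 0 h, while in kidney it had 3723, 3510 and 3709 FPKM at 24 h, against 3902, 2406 and 5248 at 0 h. Each gill library of 24 h was above each of 0 h, and the kidney times overlapped. The gill change was 1.45 (SE 0.25; limma adjusted p = 0.0246) and the kidney change -0.01 (SE 0.25; limma adjusted p = 1). The kidney change minus the gill change was -1.45 (SE 0.36), which was not called (limma adjusted p = 0.217). Without kidney 0 h replicate 2 it was -1.76 (SE 0.28; limma adjusted p = 0.0606), also not called. The kidney change of rank 8 was then -0.31 (SE 0.205; limma adjusted p = 0.519).

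Rank 126 also rose in gill, to 276.5, 353.8 and 314.0 FPKM at 24 h, against 115.7, 128.2 and 125.3 at 0 h, or by 1.34 (SE 0.27; limma adjusted p = 0.0426). In kidney it had 345.8, 448.5 and 637.6 FPKM at 24 h, against 250.0, 142.8 and 304.6 at 0 h. Those groups did not overlap either, but the kidney change of 1.06 (SE 0.27) was not called (limma adjusted p = 0.0964). It was 0.74 without kidney 0 h replicate 2 (limma adjusted p = 0.106). Over the alternatives the gill adjusted p of rank 126 ran from 0.00562 to 0.165, and that of rank 8 from 0.00304 to 0.116. The gill call of rank 8 was lost without gill 0 h replicate 1 (limma adjusted p = 0.111) or 3 (0.116), or gill 24 h replicate 1 (0.0765), 2 (0.107) or 3 (0.0509). That of rank 126 was lost without any 1 of the 6 gill libraries (0.0739 to 0.165), kidney 0 h replicate 1 (0.054) or kidney 24 h replicate 2 (0.0701).

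Ranks 79 and 60 fell in gill and had higher kidney means at 24 h than at 0 h. Rank 79 (TRINITY_DN26809_c3_g1_i1_3), the largest fall in gill, had 111.4, 132.3 and 138.8 FPKM in gill at 24 h, against 565.2, 242.7 and 636.6 at 0 h. In kidney it had 813.5, 715.7 and 544.1 FPKM at 24 h, against 575.6, 316.4 and 502.0 at 0 h. Its gill libraries were apart between the times, and its kidney libraries overlapped. Its gill change was -1.80 (SE 0.33; limma adjusted p = 0.0313) and its kidney change 0.60 (SE 0.33; limma adjusted p = 0.479). Gill minus kidney was -2.42 at 24 h (SE 0.33; limma adjusted p = 0.000162) and -0.02 at 0 h (SE 0.33; limma adjusted p = 0.973).

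Rank 60 had 226.3, 289.5 and 369.6 FPKM in gill at 24 h, against 847.2, 495.0 and 872.7 at 0 h, a difference of -1.30 (SE 0.26; limma adjusted p = 0.0437). In kidney it had 575.8, 678.1 and 527.0 FPKM at 24 h, against 569.9, 334.9 and 496.7 at 0 h, and the difference of 0.37 missed the threshold (limma adjusted p = 0.598). Gill 0 h replicate 2 was the lowest gill library of 0 h for both transcripts, and for both the kidney change minus the gill change was not called (2.39, limma adjusted p = 0.136 for rank 79; 1.67, limma adjusted p = 0.179 for rank 60). These were 2.14 (limma adjusted p = 0.111) and 1.45 (limma adjusted p = 0.14) without kidney 0 h replicate 2. The gill adjusted p ran from 0.00103 to 0.143 for rank 79 and from 0.0089 to 0.186 for rank 60 over the alternatives. Without gill 0 h replicate 1 or 3 or any 1 of the 3 gill 24 h libraries neither was called (0.0834 to 0.143 for rank 79, 0.0624 to 0.186 for rank 60). Rank 79 was also not called without kidney 24 h replicate 2 (limma adjusted p = 0.0547), nor rank 60 without kidney 0 h replicate 3 (0.0608) or any 1 of the 3 kidney 24 h libraries (0.065 to 0.0694). The remaining fall in gill, that of rank 48, was named after its values were seen: 337.7, 326.5 and 392.2 FPKM at 24 h, against 656.8, 608.9 and 670.1 at 0 h (-0.88, SE 0.12, limma adjusted p = 0.00915). In kidney it had 664.4, 597.1 and 656.0 FPKM at 24 h, against 703.1, 892.9 and 752.0 at 0 h. Those kidney groups did not overlap either, but the change of -0.29 (SE 0.12) was not called (limma adjusted p = 0.322).

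In kidney the rise was that of rank 198 (TRINITY_DN23700_c0_g1_i3_2). It had 278.0, 313.5 and 242.6 FPKM in kidney at 24 h, against 197.6, 185.0 and 160.7 at 0 h, and 152.7, 154.5 and 142.6 FPKM in gill at 24 h, against 152.2, 135.8 and 151.8 at 0 h. The kidney groups did not overlap, whereas the gill groups did. The kidney change was 0.61 (SE 0.13; limma adjusted p = 0.049) and the gill change 0.03 (SE 0.13; limma adjusted p = 0.984). The kidney call was near the threshold and was lost under 17 of 21 alternatives, with adjusted p from 0.0195 to 0.397. Leaving out any 1 library other than kidney 0 h replicate 2 ended it, with adjusted p from 0.06 to 0.216.

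**Figure D5:**
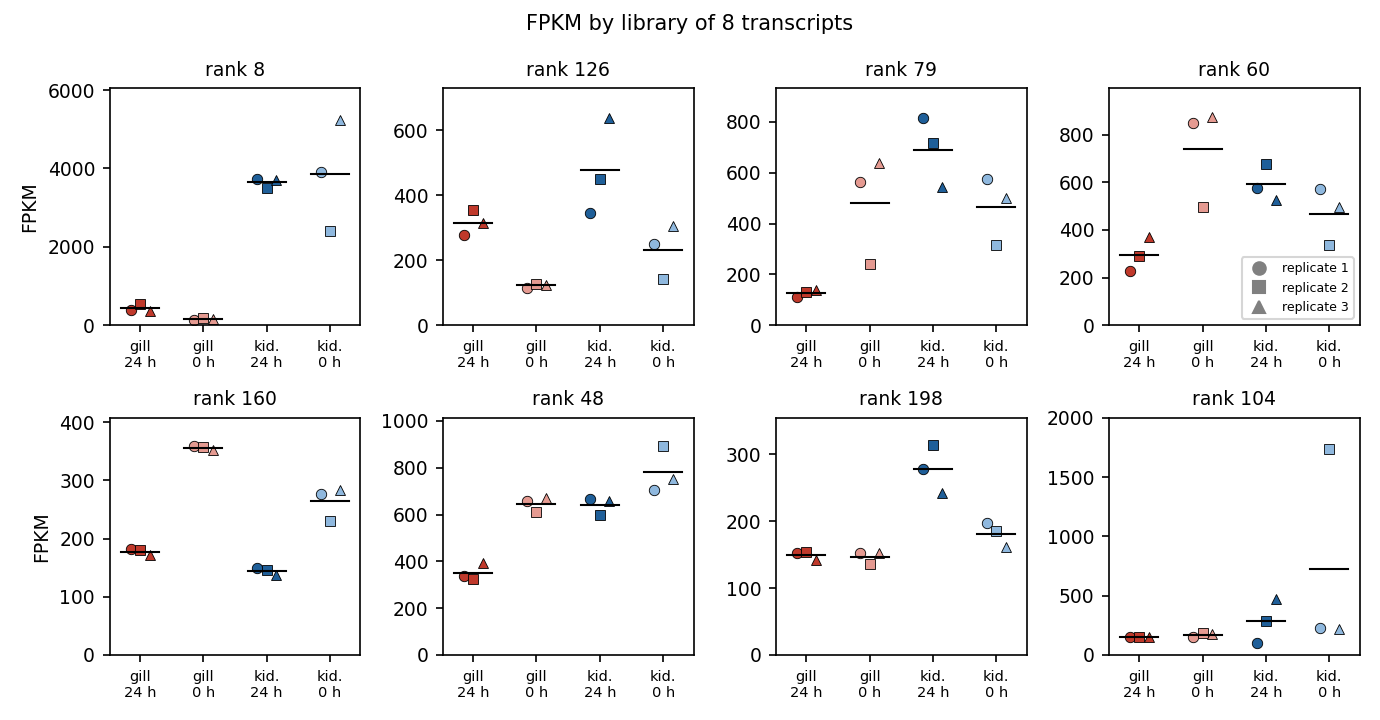
FPKM (vertical axis, from 0) by library of ranks 8, 126, 79, 60, 160, 48, 198 and 104, with 1 point per library, its shape giving the replicate, and a line at each group's mean. Ranks 8 and 126 are higher in gill at 24 h than at 0 h, ranks 79, 60, 160 and 48 lower, and rank 104 reaches 1738 FPKM in kidney 0 h replicate 2.

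With kidney 0 h replicate 2 left out, all 6 gill calls and both kidney calls remained. The 17 gill changes then ran from -1.80 to 1.45 with a median size of 0.65, and the 20 kidney changes from -1.42 to 0.89 with a median size of 0.61. Called in both tissues were 3: rank 160 and rank 192 fell in both, and rank 205 rose in both. Rank 192 changed by -0.45 in gill (SE 0.09; limma adjusted p = 0.039) and -0.52 in kidney (SE 0.10; limma adjusted p = 0.0311), and rank 205 by 0.38 (SE 0.08; limma adjusted p = 0.044) and 0.61 (SE 0.09; limma adjusted p = 0.0124). The largest kidney fall was then that of rank 153, -1.42 (SE 0.26; limma adjusted p = 0.0241), which with all libraries was not called (limma adjusted p = 0.227). With all libraries, neither rank 192 (limma adjusted p = 0.252 in gill and 0.363 in kidney) nor rank 205 (0.737 and 0.911) was called. Rank 205 had 282.8 FPKM in kidney 0 h replicate 2, above its 164.8, 175.6 and 146.5 FPKM in kidney at 24 h. In the other kidney libraries of 0 h it had 104.5 and 107.3 FPKM, so its kidney rise rests on leaving that library out. Ranks 192, 205 and 153 were singled out after their values were seen.

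In the main fit, the change over 24 h was not shown to differ between the tissues for any of the 275. The test of the kidney change minus the gill change called 0 of them, where 0.0502% of all tested transcripts were called, with 26 of the 275 at an unadjusted limma p under 0.05 (9.45%, beside 8.72%). With library weights 1 was called, and without gill 0 h replicate 2, 3 were. The share of all tested transcripts called in those fits is not given here, so these counts cannot be set against it. Without kidney 0 h replicate 2, 0 of the 275 were called, where 0.0798% of all tested transcripts were. In that fit 54 of the 275 were at an unadjusted limma p under 0.05, beside 11.9% of all. With all libraries the median difference was 0.16, beside 0.09 over all tested transcripts. The change was higher in kidney for 207 of the 275, and for 43380 of all 75716 tested transcripts. The median was 0.09 without kidney 0 h replicate 2, beside 0.02 over all. With median-ratio scaling the median was 0.00 and 137 had the higher change in kidney, so this direction did not hold under every scaling. The median changes in kidney and gill were 0.08 and -0.02 with equal totals, and 0.13 and 0.04 with quantile normalization.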

How the data were processed

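The table that the authors deposited holds FPKM of 84875 assembled transcripts in 12 library columns, per the file headers. The labels' protocols name TRIzol for extraction of total RNA. Read trimming with Trimmomatic is named in the submitters' processing notes, and the IDs follow Trinity's naming. Aligner, quantifier and assembly settings: not given in the sources used here. Columns were matched to samples by library name. FPKM are normalized values, and count models were not used. limma 3.58.1 in R 4.3.3 (4 group means, 12 libraries, 8 residual degrees of freedom, eBayes with a trend) was run on log2(FPKM + 1) for the 75716 transcripts at 1 FPKM or more in at least 3 libraries, all 275 abundant ones among them. A call is a Benjamini-Hochberg adjusted p under 0.05 over all tested transcripts, two-sided. The fit was run on simulated data in which libraries were independent and none stood apart. That run does not show how the fit performs on these libraries. Gene lists and cell type markers could not be matched to IDs.

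The members, lists and tests were chosen with earlier results of these data known. Transcripts described singly are the 6 of highest mean FPKM; the 3 with the largest average tissue difference in each direction among those called at both times; up to 3 rises and 3 falls per tissue among called transcripts whose groups do not overlap; and the 3 on each side of the threshold, of which only the lowest FPKM is given. IDs are printed for the largest rise and fall in each tissue. Others are said to be picked after their values were seen, or are described because they share the name of an assembler gene or component or have the widest range.

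At 24 h, gill and kidney libraries of the same number had correlated deviations from their group means (r = 0.137, 0.111 and 0.109 over 75716 transcripts), although the third gill and kidney libraries carry different library name numbers. At 0 h the same pairs gave 0.0915, -0.00854 and 0.0345. Libraries of different numbers gave -0.0959 to 0.0574 at 0 h, so only the first pair stood above them. Between the 2 times of a tissue (-0.0493 to 0.0797) no such pairing was seen. The main fit treats gill and kidney libraries as independent, and only the replicate block allows for such pairs. Alternatives were other pseudocounts, filters, scalings, samples in the fit, library weights, a replicate block, other membership thresholds and leaving out each library.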

Additional observations from a re-analysis of the deposited data

How the results depend on the processing

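Number of transcripts called, with other membership rules: at 50 FPKM or more in every library (659 transcripts) 238 between tissues at 24 h, 192 at 0 h, 15 over time in gill and 11 in kidney; at 200 FPKM (116) 28, 24, 2 and 0; with a mean of 100 FPKM (630, of which 628 were tested) 337, 312, 29 and 26, and 1 for the difference between the tissues' changes. These rules all use the main fit, which called 30.7%, 29.3%, 0.848% and 0.824% of all tested transcripts, and 0.0502% for the difference. Shares of the FPKM total in gill 24 h, gill 0 h, kidney 24 h and kidney 0 h were 26.7%, 26.9%, 29.5% and 28.7% at 50 FPKM, 14.5%, 14.1%, 15.9% and 15.4% at 200 FPKM, 34.7%, 35.3%, 30.2% and 30.8% with the mean, where gill is above kidney, and 18.7%, 18.8%, 20.8% and 20.3% without rank 1. With the 275 transcripts, quantile normalization gave 134 between tissues at 24 h (48.7%, beside 31.7% of all). A pseudocount of 0.1 gave 2 over time in gill and 1 in kidney, library weights 18, 13 and 1 for the difference between changes, groups of 1 tissue alone 3 and 0, and no filter and equal totals 1 each in kidney. With equal totals 0.832% of all tested transcripts were called in kidney, and for the others in this list that share is not given here.

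The replicate block called 79 between tissues at 24 h and 67 at 0 h, 0 over time in gill (limma, 39 unadjusted p under 0.05) and 0 in kidney (35), and 0 for the difference between changes (22). Over time the numbers do not pair libraries. The share of all tested transcripts called with the block is not given here.

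Leaving out 1 library gave 71 to 129 between tissues at 24 h, 57 to 104 at 0 h, 1 to 17 over time in gill, 1 to 20 in kidney and 0 to 3 for the difference. Beside these ranges, shares of all tested transcripts are given only for kidney 0 h replicate 2. With the rule read from 11 libraries, 275 to 293 transcripts held 19.8% to 20.4%, 19.7% to 20.3%, 21.8% to 22.2% and 21.3% to 21.6%. Choosing and fitting without kidney 0 h replicate 2, an alternative added after the data were seen, gave 140, 113, 18, 21 and 0. That fit called 37.1%, 33.1%, 2.19%, 2.72% and 0.0798% of all tested transcripts. The transcripts picked by rule for a called tissue difference or change gave 399 values over the alternatives, and all kept their direction. They were picked for the largest differences in these same libraries, so a kept direction is not a separate check. Of the 399 values, 61 lost their call, all of them over time. Ranks 1 to 5 were not among them. Without kidney 0 h replicate 2, the 0 h tissue differences of ranks 1 and 2 changed sign, as did their kidney changes. The number of reads per library is unknown, so how far depth limits a value is unknown too.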
